A study of Mus musculus with 8 samples.

Results

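Steroid hormones and bile acid precursors are interconverted in liver by a small set of oxidoreductases, and the genes described here are 10 of them among 23337 gene symbols counted in each library: *Hsd3b2*, *Hsd3b3*, *Hsd3b5*, *Hsd11b1*, *Hsd17b2*, *Hsd17b6*, *Hsd17b13*, *Srd5a1*, *Akr1c6* and *Sdr9c7*. They were taken by symbol as liver hydroxysteroid dehydrogenases, steroid reductases and related genes, and were selected on earlier results of these same libraries, with their genotype and refeeding fold changes in view, so their values are a description. Where one of them is counted as past the threshold of the fit across all genes, the count describes that fit on the libraries the selection had used and is no independent evidence. All 10 symbols were present in all 8 count files, and all 10 passed the filter on low counts that left 14328 genes for testing. The measurement is RNA-seq read counts per gene in RNA of whole liver.

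The livers came from 12-week-old C57BL/6 mice in 4 groups of 2 samples each. WT mice, which per the methods carried the floxed alleles without Cre, and HRD1Alb mice, labelled Hrd1-/-, were killed after an overnight fast (fasted), or after such a fast and 4 h of renewed feeding (refed). In HRD1Alb mice the floxed HRD1 gene, an endoplasmic reticulum ubiquitin ligase listed under its symbol *Syvn1*, is removed by Cre driven by the albumin promoter. The deletion is thus aimed at hepatocytes from early in liver development, and liver cells that never made Cre keep the gene. The labels do not say that the samples of a group came from separate animals, so p-values measure only the spread between these samples, which may be technical. The comparisons ask how loss of HRD1 alters the transcripts in each feeding state and how refeeding alters them in each genotype.

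Hydroxysteroid dehydrogenases exchange a hydroxyl and a keto group on the steroid ring or side chain with a nicotinamide cofactor, and so switch a hormone between an active and an inactive form. Steroid reductases saturate a double bond of the ring, which either makes a stronger ligand, as for dihydrotestosterone, or starts the hormone's clearance. The enzymes fall into the short-chain dehydrogenase and the aldo-keto reductase families, and liver, which makes little hormone of its own, uses them to reactivate glucocorticoid, to clear androgens and oestrogens, and to build bile acids. Several of these genes are known to be expressed at different levels in male and female mouse liver.

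The targeted gene was checked first. *Syvn1* stood at 111 and 99.8 normalized CPM (the reads of a gene relative to the library total, scaled by the TMM method) in fasted WT and at 32.6 and 31.5 in fasted HRD1Alb liver. In refed liver it was 637 and 305 in WT and 453 and 132 in HRD1Alb. In *Syvn1* the library labelled refed HRD1Alb replicate 1 thus lay between the 2 refed WT libraries, which goes against its label. The summed level of 11 male-biased genes, described below, was 780 to 1804 CPM in the 2 refed HRD1Alb libraries and 3075 to 5231 in refed WT. That of 16 female-biased genes was 447 to 492 and 11.4 to 35.1 CPM. In both sums replicate 1, like replicate 2, lay outside the refed WT range, and why *Syvn1* differs was not tested. Both lists were chosen with earlier results of these libraries known, so the sums are no independent check of that label. The 2 refed HRD1Alb libraries also differed from each other: 3204 genes (22.4%) were 2-fold or more apart between them, against 2.96% to 7.96% within the other groups. The difference of replicate 2 from replicate 1 followed exon length (Spearman's rho −0.504 across genes, −0.118 to 0.0106 elsewhere). Which of the 2 libraries departs was not tested. The refed genotype differences and HRD1Alb refeeding changes of the 10 genes are therefore also given without each of these libraries, as are the refed genotype differences past the threshold of the other genes named, except that of *Srd5a2*. Fasted comparisons use neither of them, but share their spread: the common dispersion of the fit was 0.0573 with all 8 libraries and 0.0198 without either refed HRD1Alb library.

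Library totals ran from 40210576 to 49117080 counts, at which 3 counts correspond to 0.0508 to 0.0788 normalized CPM. Hepatocyte markers such as *Alb* were abundant in all 8 libraries. The summed level of 8 hepatocyte markers, most of it *Alb* (101100 and 110900 CPM in fasted WT), was 139600 to 151000 CPM in fasted WT and 89240 to 89810 in fasted HRD1Alb liver, and 113500 to 119700 and 65480 to 103000 in the refed groups. The sum of 8 Kupffer cell and macrophage markers moved the other way, from 94.3 to 106 and 109 to 109.3 CPM in fasted and refed WT to 247 to 336 and 225 to 475 in HRD1Alb. For all 8, both HRD1Alb libraries lay above both WT libraries in each state (30.6% of all tested genes fasted and 30.7% refed). In edgeR 2 of them passed as higher fasted and 7 refed, beside 0.921% and 7.09% of all tested genes. Of the 8 hepatocyte markers 7 had a negative and *Tat* a positive log2 fold change by genotype in each feeding state (0.13 ± 0.361 fasted and 0.48 ± 0.361 refed), *Ttr* and *Apoa1* overlapped between the refed genotypes, and 0 passed fasted and 1 refed in edgeR (4 and 4 had an unadjusted p under 0.05). None of the 8 markers of either list was at 0 throughout. In whole liver, fewer cells of a type and less RNA per cell cannot be told apart, and the part of these shifts in the values below was not tested.

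The members lie in gene clusters that the list did not ask for. On GRCm38 (GENCODE M21), *Hsd3b5* (chr3:98618634-98630252), *Hsd3b2* (chr3:98709255-98724543) and *Hsd3b3* (chr3:98741523-98763127) follow each other on the minus strand of chromosome 3. *Sdr9c7* (chr10:127898518-127911761, plus strand) and *Hsd17b6* (chr10:127990936-128007611, minus strand) sit in the retinol dehydrogenase cluster of chromosome 10. *Akr1c6* (chr13:4434306-4457877, plus strand) lies in the aldo-keto reductase cluster of chromosome 13, which also carries *Srd5a1* far away (chr13:69573449-69611442, minus strand). *Hsd11b1* (chr1:193221634-193264075, minus strand), *Hsd17b2* (chr8:117701904-117759027, plus strand) and *Hsd17b13* (chr5:103955440-103977410, minus strand) have no other member near them.

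The 3 clustered *Hsd3b* genes are shown by sequence because they are related neighbours whose fasted genotype differences ran from near 0 to the largest of the 10. The 120 bases just before the RefSeq start of each (GRCm38.p6, minus strand, written 5′ to 3′) are given, and capitals mark a match to a binding sequence of the HNF4 type, a nuclear receptor of hepatocytes.
Hsd3b5, chr3:98645535-98645654: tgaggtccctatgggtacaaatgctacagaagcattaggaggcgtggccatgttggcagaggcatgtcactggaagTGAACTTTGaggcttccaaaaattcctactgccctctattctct
Hsd3b3, chr3:98763129-98763248: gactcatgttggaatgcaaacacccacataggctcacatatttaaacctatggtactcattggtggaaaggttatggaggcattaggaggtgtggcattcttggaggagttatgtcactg
Hsd3b2, chr3:98724544-98724663: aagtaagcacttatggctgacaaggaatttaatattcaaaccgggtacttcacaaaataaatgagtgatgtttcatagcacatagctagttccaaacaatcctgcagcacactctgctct

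The RefSeq start of *Hsd3b5* lies outside the GENCODE gene model given above, so this window belongs to the RefSeq model alone. RefSeq windows from 250 bases before to 50 bases after the start were found for 9 of the 10 members, at 11 starts. In a local alignment the *Hsd3b3* and *Hsd3b5* windows matched at 188 of 250 columns (75.2%). *Hsd3b2* and *Hsd3b5* matched at 60 of 81 columns (74.1%), and among the other of the 36 pairs only *Hsd3b2* with *Hsd3b3* (29 of 33 columns) scored above the 15-column match of *Hsd3b2* with *Akr1c6*. The HNF4-type sequence was searched as CAAAGTNCA on either strand, TGNACTTTG when read on the other. It was found in 2 of the 9 members and in 464 of 32851 RefSeq windows (1.41%). In *Hsd3b5* it lay 44 to 36 bases before the start, and in *Hsd3b3* it lay 5 to 13 bases into the transcript, in the same stretch of letters, shown here in 30 bases each.
Hsd3b5, chr3:98645560-98645589: gtcactggaagTGAACTTTGaggcttccaa
Hsd3b3, chr3:98763106-98763135: gtcactgaaagTGGACTTTGaagcttccag

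A STAT-type sequence, TTCNNNGAA, which reads the same on both strands, was found only in *Sdr9c7*, 219 to 211 bases before the start, and in 8.3% of all windows. TATAAA, or TTTATA on the other strand, was found in *Sdr9c7* and *Akr1c6* and in 13.6% of all windows. The full palindromic response element of the glucocorticoid and androgen receptors was found in no member and in 3 windows of all. No match overlapped one of another type. These are matches of letters in short windows and not sites shown to be bound.

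Paralogous genes share stretches of transcript, and how reads in them were assigned is not given in the sources used here. Of the 50-base windows of *Hsd3b2* transcripts, 25.1% occur in transcripts of other genes, 11% of them all in *Hsd3b3*. For *Hsd3b5* the share was 21.2%, with 18.2% in *Hsd3b4*, which had 0 to 2 counts per library, and in the predicted gene *Gm10681*. It was 6.69% for *Hsd3b3*, 12.1% for *Hsd17b6* (with *Rdh1* and neighbouring genes), 15.1% for *Srd5a1* (with the predicted gene *Gm17108*) and 1.38% for *Akr1c6* (with *Akr1c20*). *Hsd11b1*, *Hsd17b2* and *Sdr9c7* shared none, and *Hsd17b13* shared 0.51%. Values of *Hsd3b2* in particular may hold reads of *Hsd3b3*.

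Levels of different genes were compared per kilobase of exon, as normalized CPM per kb. In fasted WT liver the order was *Hsd17b13* (315), *Akr1c6* (201), *Hsd11b1* (145), *Hsd17b2* (67), *Hsd17b6* (45.5), *Srd5a1* (38.9), *Sdr9c7* (14.3), *Hsd3b5* (8.77), *Hsd3b3* (6.83) and *Hsd3b2* (2.1). Only the neighbours *Hsd3b5* and *Hsd3b3* overlapped in their 2 libraries. In refed WT liver *Akr1c6* led with 400 CPM per kb *Hsd3b5* stood at 65.3, between *Hsd17b2* (110) and *Srd5a1* (40.5), and *Srd5a1*, *Hsd17b6* and *Hsd3b3* overlapped in turn. In both HRD1Alb groups *Hsd3b5* was last, at 0.238 CPM per kb fasted and 0.762 refed.

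**Figure D1:**
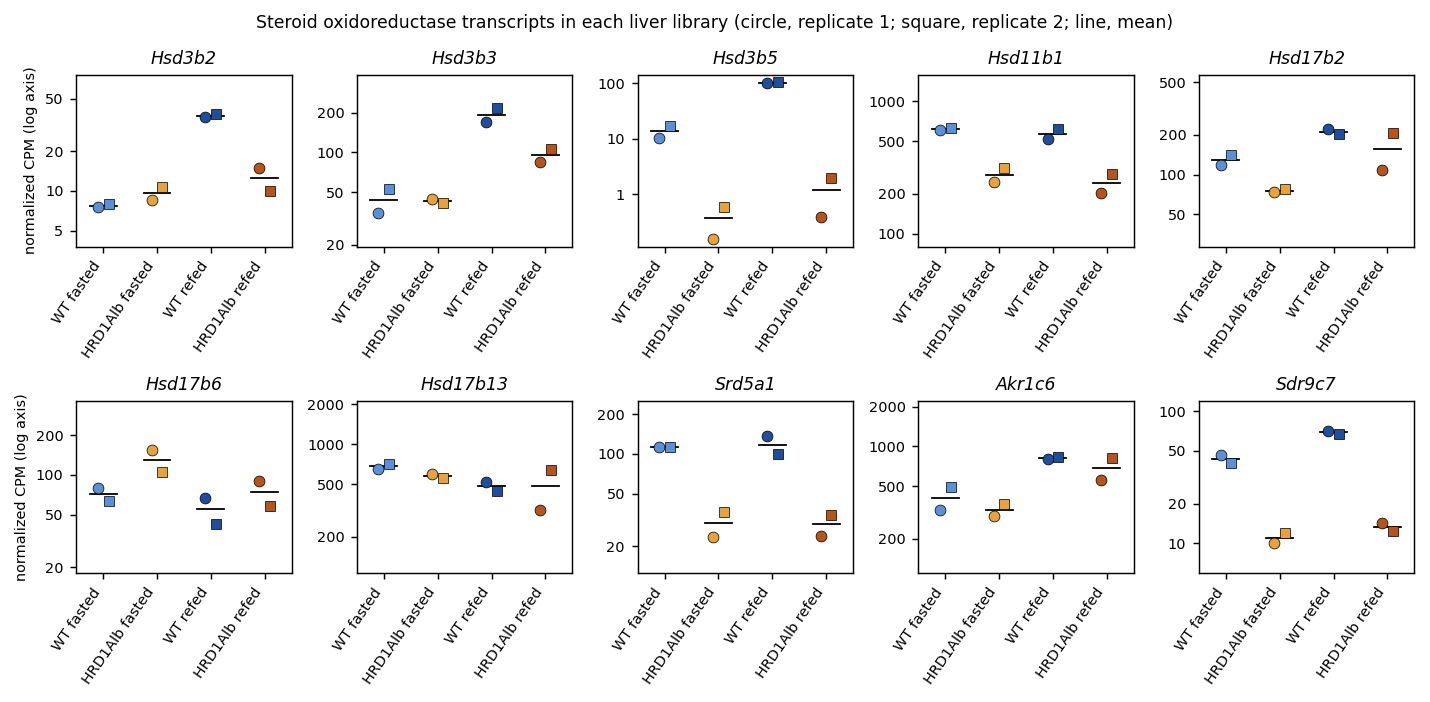
Normalized CPM of the 10 steroid oxidoreductase genes in each of the 8 liver libraries, on a log axis with its own range in each panel. Circles are replicate 1, squares replicate 2 and lines the mean of the 2. Every HRD1Alb point lies below every WT point of the same feeding state for *Hsd3b5*, *Hsd11b1*, *Srd5a1* and *Sdr9c7*, and *Hsd3b2* and *Hsd3b3* differ by genotype in refed liver.

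Counted over the 10 genes, 3 were lower in fasted HRD1Alb than in fasted WT liver at an adjusted p under 0.05 (edgeR's quasi-likelihood test, Benjamini-Hochberg adjustment over 14328 genes), none was higher and 7 did not pass. Of all tested genes, 0.433% were lower, 0.921% were higher and 1.35% differed in either direction. In refed liver 6 were lower, none was higher and 4 did not pass, against 4.84% lower, 7.09% higher and 11.9% in either direction of all tested genes. The median log2 fold change of the 10 was −0.539 fasted and −1.12 refed, beside −0.0243 and 0.0438 over all tested genes. In each feeding state 6 of the 10 had both HRD1Alb libraries below both WT libraries, where 34.2% of all genes did so fasted and 30.1% refed. Both HRD1Alb libraries lay above both WT libraries for 2 of the 10 fasted and 0 refed, where 30.6% and 30.7% of all genes did. Since these genes were chosen with such results in view, nothing is read from the counts. Scaling by library totals in place of TMM shifted log2 fold changes upwards, by a difference in mean log2 scale factor of 0.38 in the fasted and 0.21 in the refed genotype comparison, with somewhat other shifts for single genes, and log2 fold changes below are relative to the TMM scale.

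*Hsd3b5* showed the largest genotype difference of the 10. Its product belongs to the 3-beta-hydroxysteroid dehydrogenases and acts in male mouse liver mainly as a reductase of ketosteroids. It stood at 10.2 and 17.0 CPM in fasted WT and at 0.156 and 0.581 in fasted HRD1Alb liver, which are 8 and 32 counts. After refeeding it was 99.2 and 103 CPM in WT and 0.389 and 1.97 in HRD1Alb, or 23 and 90 counts. The groups were far apart in both feeding states, and the HRD1Alb values rest on few reads. The log2 fold change was −5.18 ± 0.807 (SE) fasted and −6.45 ± 0.804 refed. The refed value was −5.68 without the library labelled refed HRD1Alb replicate 1 and −8.02 without replicate 2.

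*Hsd3b2* and *Hsd3b3*, which oxidise and isomerise the ring of precursor steroids, had another pattern. *Hsd3b2* was at 7.53 and 7.96 CPM in fasted WT and at 8.47 and 10.7 in fasted HRD1Alb liver, so that its 2 HRD1Alb values were slightly above. Refed, it was 36.1 and 38.3 CPM in WT and 14.9 and 9.97 in HRD1Alb, and both HRD1Alb values were below. *Hsd3b3* was at 34.9 and 52.4 CPM in fasted WT against 44.8 and 41.5 in fasted HRD1Alb, where the groups overlapped.

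Refed, *Hsd3b3* reached 171 and 215.5 CPM in WT and 85.3 and 107 in HRD1Alb liver, and the groups no longer overlapped. The log2 fold changes by genotype were 0.31 ± 0.232 fasted and −1.58 ± 0.234 refed for *Hsd3b2*, and −0.02 ± 0.239 and −1.01 ± 0.240 for *Hsd3b3*. On library totals the fasted value of *Hsd3b3* was 0.37. Leaving out the library labelled refed HRD1Alb replicate 1 gave refed values of −1.90 and −0.86, and leaving out replicate 2 gave −1.32 and −1.18.

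*Hsd11b1* encodes the reductase that regenerates active glucocorticoid from its inactive keto form in the lumen of the endoplasmic reticulum. It was at 605 and 630.2 CPM in fasted WT and at 244 and 313 in fasted HRD1Alb liver. Refed libraries gave 518 and 622 CPM in WT and 203 and 284 in HRD1Alb. No HRD1Alb value reached a WT value in either state. The level was 2.22-fold lower fasted (log2 −1.15 ± 0.224, not past the threshold) and 2.34-fold lower refed (−1.23 ± 0.224). The refed log2 fold change was −1.01 without the library labelled refed HRD1Alb replicate 1 and −1.50 without replicate 2.

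*Srd5a1*, the type of steroid reductase that liver uses to reduce testosterone and glucocorticoids, was at 113 and 114 CPM in fasted WT and at 23.5 and 36.5 in fasted HRD1Alb liver. It was at 136 and 99.7 CPM in refed WT and at 24.1 and 34.8 in refed HRD1Alb. The WT and HRD1Alb values did not overlap, and feeding state made little difference within either genotype. The difference was 3.78-fold fasted (log2 −1.92 ± 0.288) and 4-fold refed (−2 ± 0.289). The refed log2 value was −1.76 and −2.29 without the library labelled refed HRD1Alb replicate 1 and without replicate 2.

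*Sdr9c7*, a short-chain dehydrogenase related to the retinol dehydrogenases, was at 46.4 and 40.7 CPM in fasted WT and at 10.1 and 12.0 in fasted HRD1Alb liver. Refed, it was at 71.2 and 67.1 CPM in WT and at 14.4 and 12.4 in HRD1Alb. It had the smallest standard errors of the 10, with replicates close together in every group. It was 3.94-fold lower in fasted HRD1Alb liver (log2 −1.98 ± 0.176) and 5.16-fold lower in refed (−2.37 ± 0.178). Leaving out the library labelled refed HRD1Alb replicate 1 or replicate 2 gave refed log2 values of −2.48 and −2.27.

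**Figure D2:**
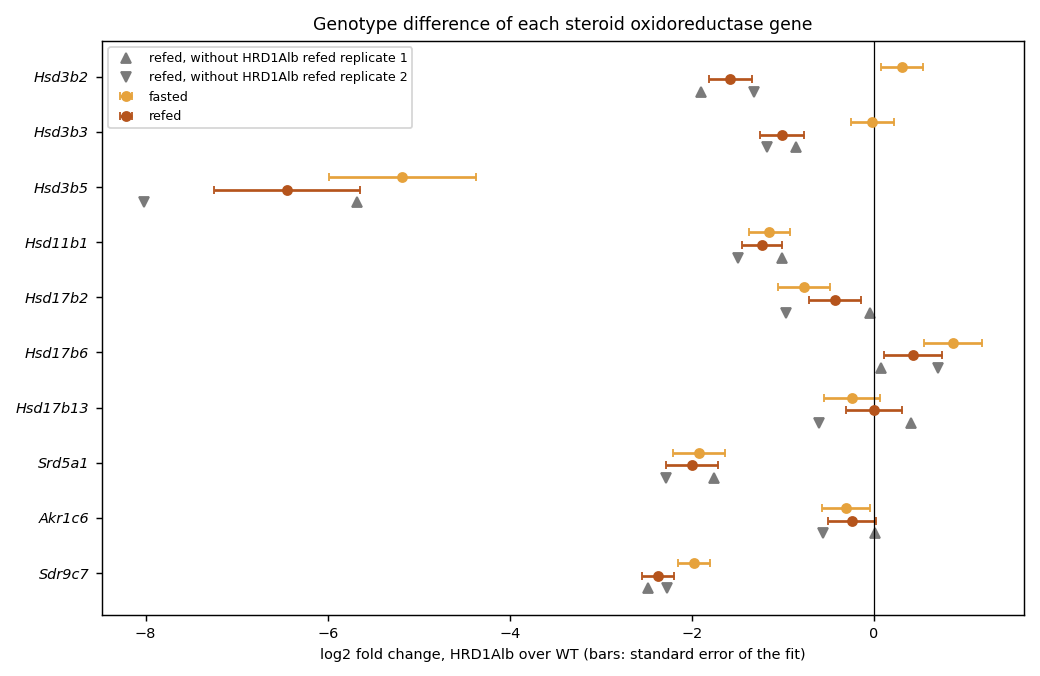
Log2 fold change of HRD1Alb over WT liver for each of the 10 genes, with standard errors of the fit as bars, fasted (yellow) and refed (brown). Grey triangles give the refed value with one refed HRD1Alb library left out. *Hsd3b5*, *Srd5a1*, *Sdr9c7* and *Hsd11b1* lie left of 0 in both states, and the triangles of *Hsd17b13* and *Akr1c6* fall on either side of 0.

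*Hsd17b2* oxidises oestradiol and testosterone to weaker hormones. It was at 119 and 139 CPM in fasted WT and at 73.6 and 77.8 in fasted HRD1Alb liver. Refed, it was at 221 and 202 CPM in WT, while the HRD1Alb libraries gave 108 and 205, one well below WT and one among the WT values. The log2 fold change was −0.77 ± 0.285 fasted and −0.43 ± 0.284 refed, neither past the threshold. The refed value was −0.05 without the library labelled refed HRD1Alb replicate 1 and −0.97 without replicate 2.

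*Hsd17b6*, which acts on androgen metabolites and retinols, was the only member besides *Hsd3b2* with both fasted HRD1Alb values above WT. It was at 79.6 and 63.8 CPM in fasted WT and at 155 and 106 in fasted HRD1Alb liver (log2 0.87 ± 0.320, not past the threshold). In refed liver WT gave 67.5 and 42.6 CPM and HRD1Alb 89.9 and 58.4, and the groups overlapped (0.43 ± 0.319). The refed value was 0.08 without the library labelled refed HRD1Alb replicate 1 and 0.70 without replicate 2.

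*Hsd17b13*, a lipid droplet protein with retinol dehydrogenase activity, was among the most abundant. It was at 648 and 711 CPM in fasted WT and at 597 and 552 in fasted HRD1Alb liver. It was at 520 and 441 CPM in refed WT and at 319 and 642 in refed HRD1Alb, where the 2 libraries lay on either side of WT. The log2 fold change was −0.24 ± 0.306 fasted and 0.00 ± 0.305 refed, and the fasted value was 0.14 on library totals. The refed value was 0.41 without the library labelled refed HRD1Alb replicate 1 and −0.60 without replicate 2.

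*Akr1c6*, the aldo-keto reductase that reduces androstenedione to testosterone in mouse liver, was at 328 and 489.5 CPM in fasted WT and at 296 and 364 in fasted HRD1Alb. Refed, it was at 801 and 825 CPM in WT and at 553.5 and 822 in HRD1Alb. The genotypes overlapped in both states. The log2 fold change was −0.31 ± 0.266 fasted, which was 0.08 on library totals, and −0.24 ± 0.265 refed. The refed value was 0.01 and −0.56 without the library labelled refed HRD1Alb replicate 1 and without replicate 2.

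Left-out libraries changed which genotype differences passed. With any 1 of the 4 fasted libraries left out, 0 of the 10 genes passed in the fasted comparison, and 0 to 3 of all genes did. Only *Sdr9c7* passed without either refed WT library (0.156% and 0.15% of all genes), and 5 passed without either refed HRD1Alb library: *Hsd3b5*, *Hsd11b1*, *Hsd17b2*, *Srd5a1* and *Sdr9c7*. In the refed comparison 0 passed without either refed WT library (1 and 2 of all genes), 0 when only the 4 refed libraries were fitted (0 of 13835 genes), 7 without the library labelled refed HRD1Alb replicate 1 and 8 without replicate 2. It was 4 without fasted WT replicate 2 or either fasted HRD1Alb library, namely *Hsd3b2*, *Hsd3b5*, *Srd5a1* and *Sdr9c7*, where 2.83% to 5.11% of all genes passed. The counts over all genes rose too: 21.7% and 21.3% passed in the fasted comparison without one or the other refed HRD1Alb library, and 52.8% and 23.7% in the refed one.

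Refeeding for 4 h raised 2 of the 10 genes past the threshold in WT liver, *Hsd3b2* and *Hsd3b3*, and lowered none (1.2% of all tested genes rose, 1.41% fell and 2.61% changed in either direction). In HRD1Alb liver 2 rose, *Hsd3b3* and *Akr1c6*, and none fell (5.43% rose, 5.05% fell, 10.5% either way). The median log2 fold change of the 10 was 0.691 in WT and 0.329 in HRD1Alb liver, beside 0.00132 and 0.0225 over all tested genes. In WT, 6 of the 10 had both refed libraries above both fasted ones, where 30.8% of all genes did, and in HRD1Alb 4 did, where 29.2% of all genes did. Both refed libraries were below both fasted ones for 1 of the 10 in each genotype (29.6% of all genes in WT and 29.5% in HRD1Alb). In WT, 0 of the 10 passed without any 1 WT library (0% to 0.211% of all genes), only *Hsd3b2* without either fasted HRD1Alb library (0.171%), and 7 without either refed HRD1Alb library (17.2% and 17%). In HRD1Alb, 0 passed without either fasted HRD1Alb (0.102% and 0.239% of all genes) or either refed WT library (3.05% and 3.1%), and only *Hsd3b3* without either fasted WT library (4.43% and 4.66%). Without the library labelled refed HRD1Alb replicate 1, 5 passed beside 51.4% of all genes, and without replicate 2, 4 passed beside 19.7%. Fitting only the 4 HRD1Alb libraries left 0 of the 10 and 0 of all genes.

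In WT liver the *Hsd3b* genes had the largest log2 fold changes on refeeding among the 10. There *Hsd3b2* rose 4.8-fold (log2 2.26 ± 0.240) and *Hsd3b3* 4.42-fold (2.14 ± 0.248), and *Hsd3b5* had a log2 fold change of 2.90 ± 0.667 that did not pass. In HRD1Alb liver the values were 0.38 ± 0.230, 1.15 ± 0.241 and 1.62 ± 0.810, and of these only that of *Hsd3b3* passed. Without the library labelled refed HRD1Alb replicate 1 they were 0.05, 1.30 and 2.38, and without replicate 2 they were 0.64, 0.98 and 0.05. Over all fits that left out 1 library the HRD1Alb value of *Hsd3b5* ran from 0.05 to 2.86. Its fasted and refed HRD1Alb libraries overlapped, so its rise there depends on single libraries.

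*Akr1c6* had log2 fold changes on refeeding of 0.99 ± 0.268 in WT and 1.06 ± 0.268 in HRD1Alb liver, of which the second passed, and 1.31 or 0.75 without the library labelled refed HRD1Alb replicate 1 or replicate 2. Its call in HRD1Alb liver was lost with RLE scaling in place of TMM and with limma-trend, and the DESeq2 Wald test also called the WT value. *Hsd17b2* had 0.71 ± 0.285 and 1.05 ± 0.287, and *Sdr9c7* 0.67 ± 0.170 and 0.28 ± 0.171, none of them past the threshold. In HRD1Alb liver these values were 1.44 and 0.17 without the library labelled refed HRD1Alb replicate 1, and 0.51 and 0.38 without replicate 2. *Hsd17b6* had −0.38 ± 0.319 and −0.82 ± 0.320, and *Hsd17b13* −0.50 ± 0.306 and −0.26 ± 0.306. The HRD1Alb values were −1.16 and 0.16 without the library labelled refed HRD1Alb replicate 1, and −0.54 and −0.85 without replicate 2, so that *Hsd17b13* changed sign. *Hsd11b1* had −0.12 ± 0.221, which was 0.03 on library totals, and −0.20 ± 0.221, and *Srd5a1* had 0.06 ± 0.278 and −0.02 ± 0.280. Their HRD1Alb values were 0.02 and 0.21 without the library labelled refed HRD1Alb replicate 1, and −0.46 and −0.32 without replicate 2.

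The difference between the refeeding changes of the genotypes, tested as an interaction, passed for 0 of the 14328 genes in edgeR (1209 had an unadjusted p under 0.05, and the DESeq2 Wald test called 105). Among the 10 genes the interaction was largest, at −1.88 ± 0.328 on the log2 scale, for *Hsd3b2*, the only one DESeq2 called (0.733% of all genes). It was −2.21 without the library labelled refed HRD1Alb replicate 1 and −1.63 without replicate 2. For *Hsd3b3* it was −0.99 ± 0.338 and for *Hsd3b5* −1.28 ± 1.04, and the other 7 lay between −0.44 and 0.34. Without the library labelled refed HRD1Alb replicate 1, *Hsd3b3* and *Hsd3b5* had −0.84 and −0.51 and the other 7 lay between −0.78 and 0.72. Without replicate 2, *Hsd3b3* and *Hsd3b5* had −1.16 and −2.84, the latter then the largest, and the other 7 lay between −0.37 and −0.16. Without fasted HRD1Alb replicate 2 the interaction of *Hsd3b5* was −0.04.

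**Figure D3:**
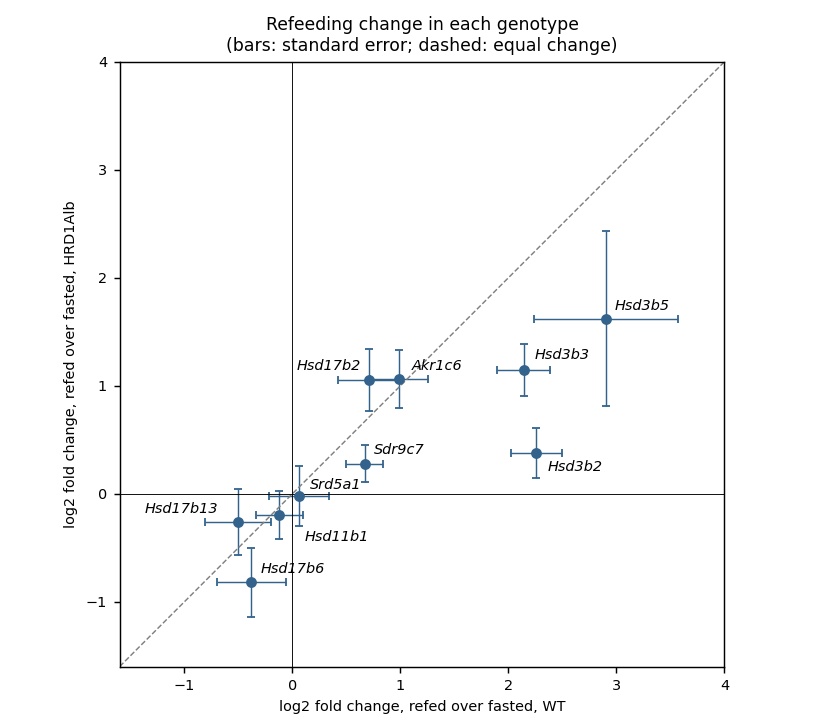
Log2 fold change on refeeding in WT (horizontal) and HRD1Alb liver (vertical) for the 10 genes, with standard errors as bars; the dashed line marks equal change. *Hsd3b2* (2.26 and 0.38), *Hsd3b3* (2.14 and 1.15) and *Hsd3b5* (2.90 and 1.62) lie below the line, and *Akr1c6* and *Srd5a1* lie on it within their bars.

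Other genes of the same enzyme families were taken from a list made by function, 40 symbols of which 35 were in the files and 29 were tested. In fasted liver 0 of the 29 differed by genotype in edgeR, while 10 had an unadjusted p under 0.05. The DESeq2 Wald test called 4 and limma-trend 1 fasted, beside 7.64% and 1.81% of all genes. In refed liver 1 rose and 4 fell, and 24 did not pass, where 11.9% of all tested genes passed (1.35% fasted). Their median log2 fold change was −0.225 fasted and −0.252 refed. Without the library labelled refed HRD1Alb replicate 1, 14 passed fasted and 11 refed, beside 21.7% and 52.8% of all genes, and without replicate 2 the counts were 14 and 12, beside 21.3% and 23.7%. With only the 4 refed libraries fitted, 0 of the genes named below passed in the refed comparison.

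Of these, *Hsd3b7*, the dehydrogenase of the early bile acid pathway, was 560 and 539 CPM in fasted WT, 391 and 438.5 in fasted HRD1Alb, 580.5 and 549.5 in refed WT and 353 and 390.1 in refed HRD1Alb liver. Its HRD1Alb values were all below WT, and only the refed difference passed (log2 −0.61 ± 0.154, adjusted p = 0.0467 in edgeR). The refed call was lost on library totals (−0.39, adjusted p = 0.115), with no filter on low counts, with at least 10 counts in every sample and with the replicate block. Without the library labelled refed HRD1Alb replicate 1 or replicate 2 the refed value was −0.54 or −0.68, and the fasted difference passed (adjusted p = 0.0324 and 0.0332). Its gene model shares 50.7% of its 50-base windows with the predicted gene *Gm49388*. *Akr1c14*, an aldo-keto reductase acting on the steroid ring, was 182 and 213 CPM in fasted WT against 141 and 139.6 in fasted HRD1Alb, and 347 and 306 in refed WT against 148 and 87.7 in refed HRD1Alb. It fell 2.77-fold in refed HRD1Alb liver (log2 −1.47 ± 0.255, adjusted p = 0.019 in edgeR), with log2 −1.90 without the library labelled refed HRD1Alb replicate 1 and −1.14 without replicate 2.

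In the chromosome 10 cluster of *Sdr9c7* and *Hsd17b6*, *Rdh9* was the 1 family gene past the threshold of the main edgeR fit as higher in HRD1Alb liver. In that fit, and with RLE scaling, only its refed difference passed. Its fasted difference passed with DESeq2, limma-trend, no filter on low counts and at least 10 counts in every sample. It also passed with the replicate block and on library totals. Among those that did not pass, *Akr1c18* of chromosome 13 (0.672 to 1.12 against 0.0748 to 0.272 CPM) and *Hsd3b1* had both HRD1Alb libraries above both WT libraries in each state. Of the 29 tested family genes 6 did so fasted and 4 refed, beside 30.6% and 30.7% of all tested genes. Both HRD1Alb libraries lay below both WT libraries for 15 and 12 of the 29, beside 34.2% and 30.1%. *Rdh9* was 58.9 and 74.4 CPM in fasted WT and 146 and 163 in fasted HRD1Alb (log2 1.21 ± 0.221, adjusted p = 0.0516 in edgeR). Refed, *Rdh9* was 45.9 and 66.9 CPM in WT and 102 and 104 in HRD1Alb (0.87 ± 0.219, adjusted p = 0.0462). Leaving out the library labelled refed HRD1Alb replicate 1 or replicate 2 gave 0.87 and 0.85. Of its 50-base windows 68.3% are shared, most of them with *Rdh16f1*. The pseudogene *Rdh18-ps* was 5.28 and 5.96 CPM in refed WT and 2.17 and 1.89 in refed HRD1Alb (−1.47 ± 0.314, adjusted p = 0.0311; 0.0544 on library totals), with −1.58 and −1.38 without one or the other refed HRD1Alb library, and shares 63.5%. The testis and prostate type of reductase, *Srd5a2*, was past the threshold refed (−2.09 ± 0.503, adjusted p = 0.0417) at under 1 CPM in every library.

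*Hsd17b4*, the peroxisomal multifunctional enzyme, was 1105 and 1065 CPM in fasted WT, 867 and 758 in fasted HRD1Alb, 839.9 and 801 in refed WT and 686 and 728 in refed HRD1Alb liver. Neither genotype difference passed (log2 −0.42 ± 0.156, adjusted p = 0.216, and −0.21 ± 0.156, adjusted p = 0.352, in edgeR). Both HRD1Alb libraries lay below both WT libraries in each state, where 34.2% of all genes did so fasted and 30.1% refed. On library totals the fasted value was −0.04. *Hsd17b12*, a reductase of very long chain fatty acid elongation, had log2 −0.62 ± 0.160 fasted and −0.47 ± 0.160 refed (adjusted p = 0.109 and 0.0944 in edgeR). Its HRD1Alb libraries were also below both WT libraries in each state. The DESeq2 Wald test called its fasted difference, as it did 7.64% of all genes. *Akr1d1*, the reductase that shapes the ring of bile acids, had 0.19 ± 0.363 and −0.65 ± 0.364 (adjusted p = 0.843 and 0.24), with its fasted WT libraries at 93.8 and 187 CPM. On refeeding, *Akr1c20* rose in both genotypes (log2 1.38 ± 0.208 in WT, adjusted p = 0.0292, and 0.86 ± 0.205 in HRD1Alb, adjusted p = 0.0421). In HRD1Alb liver *Hsdl2* (−0.79 ± 0.181, adjusted p = 0.0375), *Rdh16* (−0.86 ± 0.203, adjusted p = 0.0405) and *Rdh1*, which was under 1 CPM, also fell in edgeR, and in WT their values were −0.78 (adjusted p = 0.078), −0.55 and −0.66. The interaction passed for 0 of the 29 in edgeR (2 had an unadjusted p under 0.05) and for 0 in DESeq2.

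Among 4 genes that supply these enzymes with electrons, *H6pd*, which makes the NADPH that *Hsd11b1* uses inside the endoplasmic reticulum, was 775 and 832 CPM in fasted WT and 478 and 459 in fasted HRD1Alb liver (log2 −0.78 ± 0.156, adjusted p = 0.0617 in edgeR). It was 369 and 363 in refed WT and 181.5 and 154 in refed HRD1Alb (−1.12 ± 0.157, adjusted p = 0.0121), with −1.25 without the library labelled refed HRD1Alb replicate 1 and −1.02 without replicate 2. Refeeding lowered it in both genotypes (−1.14 ± 0.157 in WT, adjusted p = 0.0233, and −1.48 ± 0.159 in HRD1Alb, adjusted p = 0.00466). *Por*, the electron donor of microsomal P450 enzymes, also fell on refeeding in both (−1.33 ± 0.217, adjusted p = 0.0335, and −1.63 ± 0.218, adjusted p = 0.00865), with no genotype difference past the threshold.

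Of 15 tested genes for steroid conjugation, 1 was higher and 2 were lower in HRD1Alb liver, in fasted and in refed liver alike, beside 1.35% and 11.9% of all tested genes in either direction. *Sult1e1*, the oestrogen sulfotransferase, was 0.524 and 0.487 CPM in fasted WT and 3.05 and 4.09 in fasted HRD1Alb (log2 2.81 ± 0.344, adjusted p = 0.0213 in edgeR), and 0.173 and 0.184 against 0.999 and 1.49 refed (2.78 ± 0.388, adjusted p = 0.0121). It also fell on refeeding in HRD1Alb liver (−1.52 ± 0.316, adjusted p = 0.0289), with −1.49 ± 0.408 in WT (adjusted p = 0.123). The glucuronosyltransferase *Ugt2b1* was 805.5 and 706 CPM in fasted WT and 277 and 341 in fasted HRD1Alb (−1.29 ± 0.225, adjusted p = 0.0484), and 709 and 516 against 204 and 163 refed (−1.74 ± 0.228, adjusted p = 0.011). The hydroxysteroid sulfotransferase *Sult2a8*, listed as *2810007J24Rik*, was 958 and 1000 CPM in fasted WT and 389 and 507.5 in fasted HRD1Alb (−1.13 ± 0.195, adjusted p = 0.0478), and 968 and 918 against 373 and 302 refed (−1.48 ± 0.196, adjusted p = 0.0111). The fasted calls of *Ugt2b1* and *Sult2a8* were lost on library totals (adjusted p = 0.0878 and 0.102) and with the replicate block. Without the library labelled refed HRD1Alb replicate 1 the refed log2 values of *Sult1e1*, *Ugt2b1* and *Sult2a8* were 3.04, −1.91 and −1.65, and without replicate 2 they were 2.46, −1.59 and −1.34.

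Of 8 tested steroid receptors and carriers, 2 were lower in refed HRD1Alb liver and 0 passed in fasted (1 had an unadjusted p under 0.05). Of all tested genes 4.84% were lower refed, and 1.35% passed in either direction fasted. *Nr3c2*, the mineralocorticoid receptor, was 12.8 and 11.1 CPM in refed WT and 3.83 and 1.10 in refed HRD1Alb (log2 −2.27 ± 0.495, adjusted p = 0.0329 in edgeR), and 6.81 and 7.03 against 3.64 and 3.43 fasted (−0.97 ± 0.479, adjusted p = 0.341). *Esr1*, the oestrogen receptor of liver, was 21.9 and 22.1 CPM in refed WT and 9.34 and 3.71 in refed HRD1Alb (−1.75 ± 0.436, adjusted p = 0.0445). For both, which have long transcripts (6474 and 13661 exon bases), replicate 2 was the lower of the refed HRD1Alb libraries. Relative to replicate 1 that library had fewer reads on long genes, and the part of that trend was not tested. On library totals neither call held (adjusted p = 0.0558 and 0.0833). Without replicate 2 the log2 values were −1.65 and −1.24, and without the library labelled refed HRD1Alb replicate 1 they were −3.45 and −2.58.

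**Figure D4:**
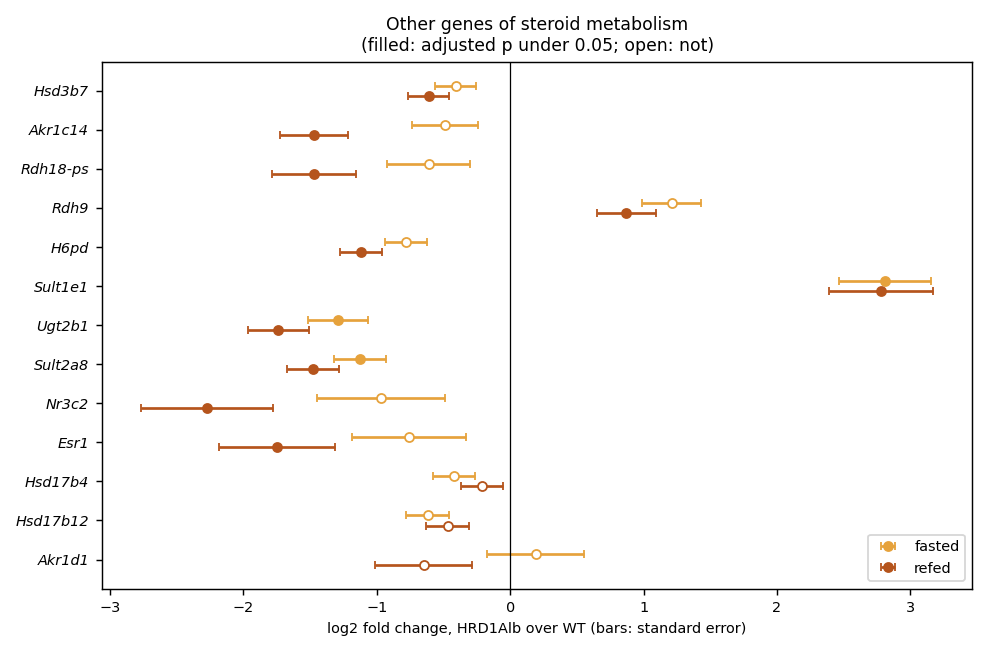
Log2 fold change of HRD1Alb over WT liver, fasted (yellow) and refed (brown), with standard errors as bars, for genes of steroid metabolism outside the 10. Filled points had an adjusted p under 0.05 in edgeR and open points did not; *Sult1e1* (2.81 and 2.78) and *Rdh9* (1.21 and 0.87) lie right of 0, and *Hsd17b4* and *Hsd17b12* are open in both states.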

How the data were processed

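Per the labels and methods, RNA of 8 liver samples was sequenced on an Illumina NextSeq instrument. The deposited values are whole-number read counts per gene symbol, 1 file per sample, without normalization. The authors' methods name ERANGE for counting, while the submitters' processing notes name cutadapt, STAR, HTSeq, DESeq2 and mm10, without versions. Replicates were not pooled.

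Counts were fitted in R 4.3.3 with edgeR 4.0.16: filterByExpr (minimum count 10, minimum total 15), TMM, 1 quasi-likelihood model with 4 groups over 8 samples, 5 contrasts, and Benjamini-Hochberg adjustment over 14328 genes. Each standard error was obtained as the size of the log2 fold change over the root of its F statistic. Log CPM used a prior count of 1. With 2 samples a group the smallest p of an exact permutation test is 0.333, so adjusted p-values rest on the spread shared across genes. The steps were tested on simulated data. limma 3.58.1 and DESeq2 1.42.0 served as alternatives.

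The members and all lists were chosen with earlier results of these data known. Named outside the 10 were functional-list genes past an adjusted p under 0.05 by genotype with at least 1 CPM in 1 group. At most 5 a list were taken, and *Hsd3b7*, *Hsd17b4*, *Hsd17b12* and *Akr1d1* were added. *Srd5a2*, *Akr1c20*, *Hsdl2*, *Rdh1*, *Rdh16*, *Por*, *Hsd3b1*, *Akr1c18*, *Tat*, *Ttr*, *Apoa1*, *Akr1b7*, *Cyp17a1* and *Star* were named after their values were seen. Of 165 listed symbols 159 were matched, 4 by an older symbol. Positions are from GENCODE M21, promoter windows from RefSeq on GRCm38.p6, aligned with Biopython. Standard errors come from the quasi-likelihood fit and so include the spread between samples as well as counting error. Floors cover counting error only.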

Additional observations from a re-analysis of the deposited data

Results flagged for a closer look

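*Hsd3b2* was picked out because its 2 HRD1Alb libraries lay above both WT libraries in fasted liver (8.47 and 10.7 against 7.53 and 7.96 CPM) and below both in refed liver (14.9 and 9.97 against 36.1 and 38.3 CPM). The interaction was −1.88 ± 0.328 on the log2 scale. It restates the pattern for which the gene was picked, in the same libraries, and the difference was not tested independently. It was −2.21 without the library labelled refed HRD1Alb replicate 1 and −1.63 without replicate 2. Of the 50-base windows of its transcripts, 11% are shared with *Hsd3b3*, whose interaction was −0.99 ± 0.338. With 2 samples a group, no single sample could be tested as standing apart from its group.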

How the results depend on the processing

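The number of the 10 genes past the threshold, 3 in the fasted and 6 in the refed genotype comparison, 2 and 2 on refeeding in WT and HRD1Alb and 0 for the interaction, ranged over the fits that left out 1 library from 0 to 5, 0 to 8, 0 to 7, 0 to 5 and 0 to 3. For the 29 other family genes (0, 5, 1, 4 and 0) the ranges were 0 to 14, 0 to 12, 0 to 6, 0 to 12 and 0 to 5. The highest counts came without a refed HRD1Alb library, where the common dispersion fell to 0.0198. A lone library was then assumed to vary like the other groups. With only the 4 samples of a comparison, 6, 0, 6 and 0 of the 10 and 6, 0, 5 and 0 of the others passed, in the same order, beside 14.6%, 0%, 14% and 0% of all genes. DESeq2 called 5 of the 10 on refeeding in WT and 1 for the interaction, and of the others 4 by genotype fasted and 2 on refeeding in WT. Of all tested genes it called 7.64% by genotype fasted, 7.58% on refeeding in WT and 0.733% for the interaction. RLE scaling and limma-trend each left 1 of the 10, *Hsd3b3*, on refeeding in HRD1Alb, beside 10.6% and 10.1% of all genes. In fasted liver 1 of the others passed with limma-trend, with no filter and with at least 10 counts in every sample (1.81%, 1.79% and 1.42% of all genes). With the last, 3 passed in refed liver (12.3% of all genes). Library totals were added after seeing the data and gave 4 of the others fasted, 2 refed and 2 on refeeding in HRD1Alb, beside 6.19%, 15.8% and 7.48% of all genes. The cause was not tested.

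The replicate block, with the replicate number as a term, gave 1 of the others fasted and 3 refed (0.831% and 9.74% of all genes). It changed no count of the 10 by over 1.5 times. Same-numbered samples correlated in their deviations by 0.0161 to 0.179, not all over 0.1, so the numbers were not taken to pair the samples. Of 785 values of the 10 genes under alternatives, 730 moved by less than 1 SD between replicates, 55 moved further and 0 of the called ones changed sign. Of the values of the other named genes, 302 kept their direction and side of the threshold, 80 fell below it and 29 rose past it. On library totals the fasted calls of *Ugt2b1* and *Sult2a8* and the refed calls of *Hsd3b7*, *Rdh18-ps*, *Nr3c2* and *Esr1* were lost. *Akr1d1* fasted ranged from −0.23 to 0.8 (−0.23 without fasted WT replicate 1, −0.12 without fasted HRD1Alb replicate 1), and *Hsd17b4* refed turned to 0.00 on library totals. Depth limits values near 3 counts (0.0508 to 0.0788 CPM), such as *Hsd3b1* in WT liver.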

Other observations

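Of 10 tested genes known to be male-biased in mouse liver, 5 were lower in fasted and 6 in refed HRD1Alb liver in edgeR (0.433% and 4.84% of all tested genes). None was higher (0.921% and 7.09% of all tested genes). The summed level of the 11 listed was 4878 to 6008 CPM in fasted WT and 902 to 1518 in fasted HRD1Alb, and 3075 to 5231 and 780 to 1804 refed. Of 14 tested female-biased genes 3 were higher in each state (0.921% of all tested genes fasted and 7.09% refed) and none lower. Sums over the 16 listed were 7.56 to 52.8 CPM in fasted WT and 394 to 626 in fasted HRD1Alb, and 11.4 to 35.1 and 447 to 492 refed. The labels do not give the sex of the mice. In all 8 libraries *Ddx3y*, of the Y chromosome, was at 55.2 to 121 CPM and *Xist*, expressed in female cells, at 0.0988 to 0.508 CPM, and 0 of 5 sex chromosome transcripts passed by genotype in either state in edgeR (0 had an unadjusted p under 0.05). Both lists were chosen with earlier results known, and their part in the values of the 10 genes was not tested.

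Of 9 genes that mark steroid-producing tissue 3 had no count in any library and 3 were tested. By genotype 0 of the 3 passed fasted and 1 passed as higher refed, where 7.09% of all tested genes were higher. *Star* went the other way refed, with 3.46 and 3.39 CPM in WT against 2.49 and 2.06 in HRD1Alb. In fasted liver *Star* was 3.29 and 3.43 CPM in WT and 3.34 and 3.63 in HRD1Alb. *Akr1b7*, an aldo-keto reductase, rose in refed HRD1Alb liver (log2 4.55 ± 0.591, adjusted p = 0.0109 in edgeR), from 0.198 and 0.315 CPM in WT to 7.01 and 5.09, and was 0.499 and 0.779 against 6.77 and 2.56 fasted. *Cyp17a1* was 69.1 and 82.8 CPM in fasted WT and 78.8 and 66.0 in fasted HRD1Alb, and 21.2 and 29.0 against 15.9 and 48.5 refed. *Hsd3b1*, an adrenal and gonadal relative of the 3 *Hsd3b* genes, had 0 and 1 counts in fasted WT and 22 and 21 in fasted HRD1Alb liver, and 0 and 1 against 4 and 9 refed.

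Of the remaining marker lists, 7 of 7 stellate cell and fibroblast markers had a positive log2 fold change by genotype in both states. Past the threshold were 0 fasted and 3 refed, where 0.921% and 7.09% of all tested genes were higher. Their sums were 178 to 352 CPM in WT against 430 to 439 in HRD1Alb fasted, and 163.5 to 201 against 351 to 485 refed. In edgeR 0 of 6 endothelial, 0 of 5 cholangiocyte and 0 of 6 lymphocyte markers passed in either genotype comparison, where an unadjusted p under 0.05 was found for 0, 2 and 1 of them fasted and for 0, 1 and 3 refed.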
